A study of Mus musculus with 16 samples.

Results

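Of 8 selected genes of the insulin and IGF route from receptor to Akt, 7 had at least 1 fasting-enriched region. The regions are of histone H3 lysine 9 beta-hydroxybutyrylation (H3K9bhb), and Akt1 had none within 10 kb. Over all protein-coding genes 23.3% had a region within 10 kb, and 22.4% to 45.6% in classes of like length. Among 77 other listed genes of the pathway the share was 28.6%. The 8 genes were chosen with earlier results of these data known, so their count is a description. The genes were taken by name: the receptors Insr and Igf1r, the docking proteins Irs1 and Irs2, the PI3-kinase subunits Pik3ca and Pik3r1, and the kinases Akt1 and Akt2, 8 of 21900 protein-coding genes in the RefSeq table. A region belonged to a gene when it overlapped it or lay within 10 kb of it on the build mm10. This gave 11 of the 8404 regions in the authors' fasted list. The single region listed as higher in fed mice was within 10 kb of 1 protein-coding gene (0.00457%) and of no member.

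H3K9bhb is a mark in which an acyl group derived from the ketone body beta-hydroxybutyrate is attached to a lysine of histone H3. The mice were C57BL/6J at postnatal day 35, and no other genotype or agent is named. One group was fasted for 48 h and the other was fed ad libitum. For each feeding state the labels describe 4 immunoprecipitated and 4 input libraries from homogenised occipital cortex, the visual part of the cortex. The question of the design is where fasting changes the mark. The deposited lists give each region a position and a log likelihood ratio (log-LR), which is the authors' own value, and nothing per mouse. No value per library, fold change, replicate spread or depth could therefore be given, and what follows describes positions without a test between mice. A list of regions that differ cannot show whether the tissue matches its label, and in a homogenate a gain in few cells and a smaller gain in many cannot be told apart.

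Insulin and IGF-1 bind receptor tyrosine kinases of the same family, which phosphorylate the IRS docking proteins. These recruit PI3-kinase, whose lipid product brings Akt to the membrane, where it is activated. In a fasted animal circulating insulin falls. In the brain the pathway is known for roles in neuronal growth, survival and synaptic plasticity.

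The promoter of Igf1r is shown first, since it was the only one of the 12 member windows in the RefSeq promoter table (mm10, GRCm38.p6; 250 bases before to 50 after a start) that a fasting-enriched region entered. The table lists starts for 7 of the 8 genes. The 250 bases before the Igf1r start are on the plus strand at chr7:67952007-67952256, with the 117 bases that lie inside its 2 regions in capitals, and they hold 42 CpG dinucleotides.
Igf1r: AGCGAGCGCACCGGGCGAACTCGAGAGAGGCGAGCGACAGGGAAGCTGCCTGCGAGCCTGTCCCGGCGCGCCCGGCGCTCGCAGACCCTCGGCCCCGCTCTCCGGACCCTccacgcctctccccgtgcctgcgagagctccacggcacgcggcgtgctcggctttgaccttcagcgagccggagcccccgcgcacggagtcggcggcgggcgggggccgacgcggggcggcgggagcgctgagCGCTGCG

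The docking protein genes Irs1 and Irs2 are shown for a pair of motifs that their promoters share. The 60 bases of Irs1 are on the minus strand at chr1:82291517-82291576, and those of Irs2 on the minus strand at chr8:11008936-11008995. Capitals mark CACGTG, the E-box bound by basic helix-loop-helix factors, and TGTTTTGC, which holds TGTTTTG, the reverse complement of the insulin response sequence CAAAACA.
Irs1: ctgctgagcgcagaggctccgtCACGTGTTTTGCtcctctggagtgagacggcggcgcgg
Irs2: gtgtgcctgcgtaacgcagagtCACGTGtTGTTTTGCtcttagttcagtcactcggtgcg
The motifs share 2 bases in Irs1, where the E-box begins 115 bases before the start, and stand 1 base apart in Irs2, where it begins 44 bases before the start. Searched on both strands, CACGTG was in 7.15% of the 32851 promoter windows, TGTTTTGC in 1.37% and both together in 40 windows (0.122%). No other member window held either motif. The motifs were chosen after these sequences had been seen, and no fasting-enriched region covered them.

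The Akt genes, of which 1 had a region and 1 had none, are shown with CpG dinucleotides in capitals. For Akt1 the 150 bases before its outer listed start are on the minus strand at chr12:112674885-112675034, and those before its inner start at chr12:112674277-112674426. Those before the outermost start of Akt2 are on the plus strand at chr7:27591402-27591551.
Akt1 outer: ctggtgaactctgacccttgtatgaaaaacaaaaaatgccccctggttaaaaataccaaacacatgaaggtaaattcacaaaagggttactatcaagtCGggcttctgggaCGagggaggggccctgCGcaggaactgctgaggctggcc
Akt1 inner: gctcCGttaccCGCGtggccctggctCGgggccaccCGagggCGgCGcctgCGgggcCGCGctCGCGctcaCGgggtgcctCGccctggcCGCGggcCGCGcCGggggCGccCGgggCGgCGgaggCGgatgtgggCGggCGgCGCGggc
Akt2: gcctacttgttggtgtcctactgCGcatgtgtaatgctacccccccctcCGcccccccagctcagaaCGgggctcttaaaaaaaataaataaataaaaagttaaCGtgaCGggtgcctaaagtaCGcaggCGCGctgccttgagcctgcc
These stretches held 3 CpGs at the outer and 28 at the inner Akt1 start, and 8 at the Akt2 start, so the Akt2 count lay between those of Akt1.

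Most of the regions lay at or near 1 end of their gene, which was the 5′ end for the 6 genes with a region and a listed start. Of the 11 regions, 9 overlapped their gene and the other 2 lay 141 bp outside Igf1r and 371 bp outside Irs2, so no region came near the 10 kb limit. Just beyond that limit, a region with a log-LR of 3.48 lay 13.4 kb from Akt2, within 1 kb of the genes Ttc9b and Gm38973. A region within 10 kb was found for 23.3% of all protein-coding genes, and for 7 of the 8 members. Counting only regions that overlap the gene, the share was 16.4% and the members' count was again 7. At least 2 regions within 10 kb were found for 5.08%, and for 3 members, Insr, Igf1r and Irs2. All 8 members were longer than the median protein-coding gene of 17.1 kb, at 21.1 to 281.4 kb, and a longer gene offers more room for a region. Among genes from 0.5 to 2 times the length of each member the share with a region ran from 22.4% for the class of Akt1 to 45.6% for that of Igf1r. The members were chosen with earlier results of these data known, so the count is a description.

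**Figure D1:**
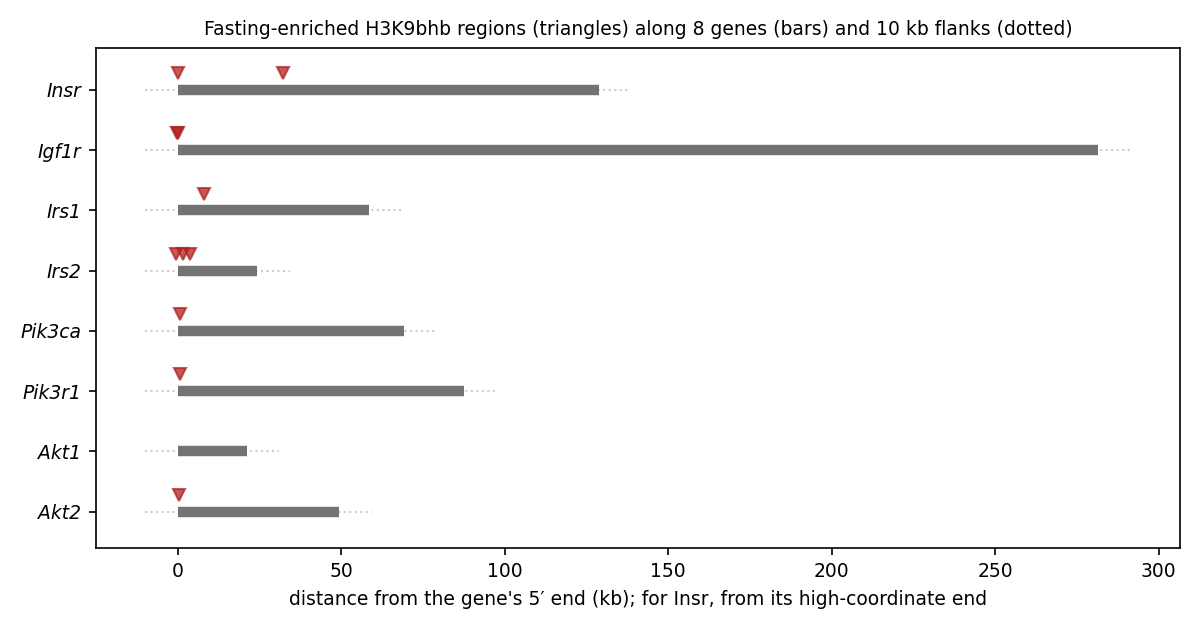
Each grey bar is a gene drawn to scale from its 5′ end (Insr from its high-coordinate end), in kb, with 10 kb flanks dotted and each fasting-enriched region as a triangle. Regions sit at or near the left end of 7 bars, Insr has another 32.2 kb in, and Akt1 has none.

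Both receptor genes had 2 regions, and these included the 3 highest log-LR values among the members. Igf1r, on chromosome 7 from 67952257 to 68233668 on the plus strand, encodes the IGF-1 receptor. Its first region, 67951879 to 67952116, was 238 bp wide with a log-LR of 9.98, ranking 494 among the 8404 regions. It ended 141 bp before the transcription start. The second region, 67952250 to 67952371, was 122 bp wide with a log-LR of 7.90 (rank 993), and spanned the start from 7 bp before it to 114 bp after it. The 133 bp between them, which hold the lower-case bases of the printed sequence, were not in the list. At least 2 regions within 1 kb of a start were found for 1.09% of protein-coding genes. When regions within 1 kb of each other were merged, the 2 of Igf1r became 1, and the members' regions numbered 10. With merged regions, 23.3% of all protein-coding genes had one within 10 kb. The share with at least 2 within 1 kb of a start was not computed for merged regions. The rest of the 281.4 kb of Igf1r held no region.

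Insr, on chromosome 8 from 3150922 to 3279649, encodes the insulin receptor. One region, 3279390 to 3279571, was 182 bp wide and lay 78 bp inside the high-coordinate end of the gene. Its log-LR of 3.39 was the lowest of the 11, ranking 8246 of 8404, where the lowest in the list was 3.11. The other, 3247278 to 3247431, was 154 bp wide and lay 32.2 kb from that end, inside the gene, with a log-LR of 8.62 (rank 751). Of genes in its length class, 36.2% had a region within 10 kb. The paired receptors thus both had a region at an end, but the log-LR there was 9.98 for Igf1r and 3.39 for Insr. Whether these values differ beyond the spread between mice was not tested, since the list holds none of that spread.

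The docking protein genes differed in where their regions lay. Irs1, on chromosome 1 from 82233105 to 82291439 on the minus strand, had 1 region, 82283531 to 82283677, 147 bp wide with a log-LR of 7.47 (rank 1179). It lay inside the gene, 7762 bp from the transcription start, and no region lay nearer to that start. In the length class of Irs1 28.8% of genes had a region, and in that of Irs2 22.8%. Irs2, on chromosome 8 from 10984681 to 11008929 on the minus strand, had 3 regions, the most of any member, with log-LR values between 4.36 and 4.72. The region at 11009300 to 11009483 lay 371 to 554 bp upstream of the start and was 184 bp wide, with a log-LR of 4.72. It did not overlap Irs2 but overlapped the gene 9530052E02Rik, so it cannot be assigned to Irs2 alone. The regions at 11007185 to 11007373 (log-LR 4.36) and 11005194 to 11005367 (log-LR 4.45) lay 1556 and 3562 bp inside the gene. They were 477 and 2483 bp from 9530052E02Rik, so all 3 regions were within 10 kb of that gene too. All 3 log-LR values were below the list median of 4.96. At least 3 regions within 10 kb were found for 1.39% of protein-coding genes, and the gaps between the Irs2 regions were 1926 and 1817 bp.

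Each PI3-kinase gene had a single region a short way downstream of its outermost start. Pik3ca encodes p110 alpha, the catalytic subunit, and lies on chromosome 3 from 32397065 to 32466112 on the plus strand. Its region, 32397485 to 32397646, was 162 bp wide with a log-LR of 4.66 (rank 4913) and began 420 bp after the start. Pik3r1 encodes the p85 alpha regulatory subunit and lies on chromosome 13 from 101680761 to 101768217 on the minus strand. Its region, 101767601 to 101767840, was 240 bp wide, the widest of the 11, with a log-LR of 4.24 (rank 6084), and began 377 bp after the start. Partner subunits thus had regions at like distances and with log-LR values on the lower side of the list median. The shares of genes with a region in their length classes were 30% for Pik3ca and 32% for Pik3r1. Pik3r1 has a second listed start, from which shorter forms of the protein arise, and the nearest region to it was that at the outer start, 74971 bp away.

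The Akt genes stood apart from each other. Akt2, the isoform known for insulin-driven glucose uptake, lies on chromosome 7 from 27591552 to 27640826 on the plus strand. Its 1 region, 27591820 to 27592001, was 182 bp wide with a log-LR of 4.46 (rank 5459) and began 268 bp after the outermost start. Of the 4 listed Akt2 starts, the other 3 were 4.8 to 15.3 kb from it. Akt1, the widely expressed isoform known for roles in growth and survival, lies on chromosome 12 from 112653821 to 112674884 on the minus strand. The nearest region was 47.8 kb away with a log-LR of 5.76, within 1 kb of Cep170b and Gm46382. Of genes in the length class of Akt2 27.7% had a region within 10 kb. In the class of Akt1 the share was 22.4%, so having none was the more common outcome there. The list holds only regions that passed the authors' cutoff, and a weaker difference at Akt1 would not appear in it.

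**Figure D2:**
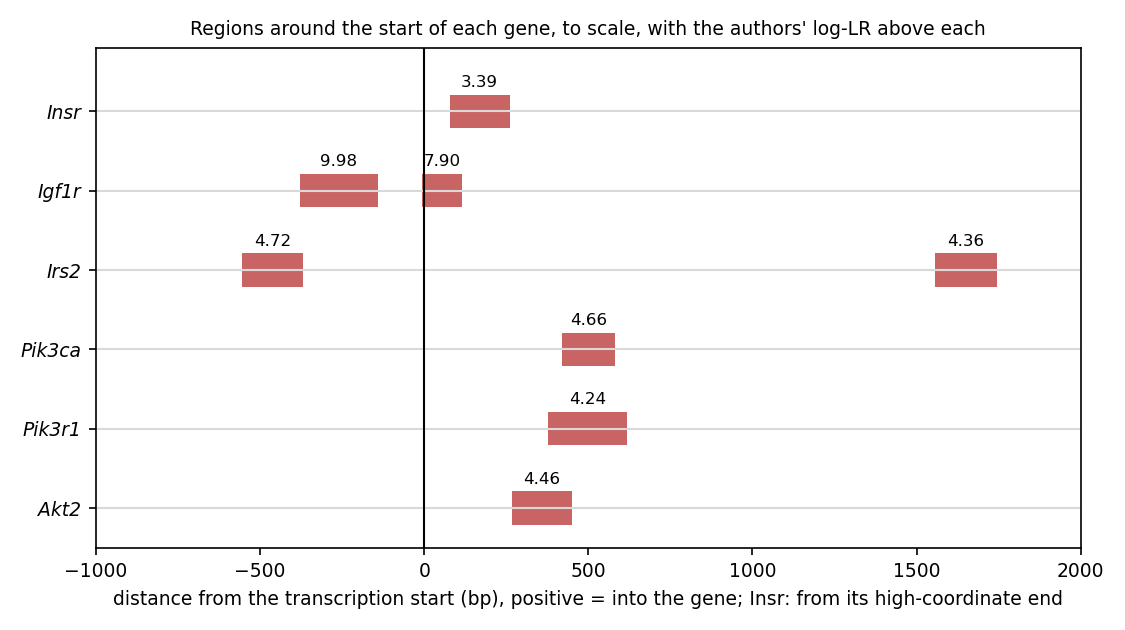
Horizontal axis: distance in bp from the transcription start, positive into the gene (for Insr, from its high-coordinate end); bars are regions to scale with the authors' log-LR above. Igf1r alone has a region across its start, Pik3ca, Pik3r1 and Akt2 have theirs 268 to 616 bp downstream, and Irs2 has one upstream and one further in. The regions of Insr, Irs1 and Irs2 deeper in the gene are beyond the axis.

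At the start itself, 6 of the 8 members had a region within 1 kb: Igf1r, Irs2, Pik3ca, Pik3r1 and Akt2 at a listed start and Insr at a gene end. For all protein-coding genes, taken at listed starts or at either end where none is listed, the share was 12.8%. CpG-rich promoters had a region more often than others. Among genes with a listed window of at least 50% GC and an observed to expected CpG ratio of at least 0.6, 23.5% had a region within 1 kb of a start, against 3.71% of genes with no such window. All 7 members with listed starts had such a window, and 5 of these 7 had a region within 1 kb. Base composition thus moved with the presence of a region over all genes, and its part in the members' count was not tested. GC content was 76.0% in the Igf1r window, 75.7% in the outer Pik3r1 window, 71.3% in Irs1, 63.3% in Pik3ca and 50% in the outermost Akt2 window, with Irs2 between Pik3r1 and Irs1. The median over all windows was 52.7%. Akt1 had 52.3% at its outer start and 79.7% at its inner start, the highest of the 12 windows, with no region at either. Akt2 had the lowest GC content of the 7 CpG-rich member windows, and a region.

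Over all protein-coding genes with a listed start, 2295 regions lay within 1 kb of one, and 77.5% of them were wholly downstream, 10.9% across the start and 11.5% wholly upstream. The members' 6 regions at listed starts were 3 downstream, 1 across and 2 upstream. Those of Pik3ca, Pik3r1 and Akt2 thus had the common placement. The upstream regions of Igf1r and Irs2 were of the less frequent kind. The median log-LR was 4.92 over the 2295 regions and 4.69 over these 6.

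**Figure D3:**
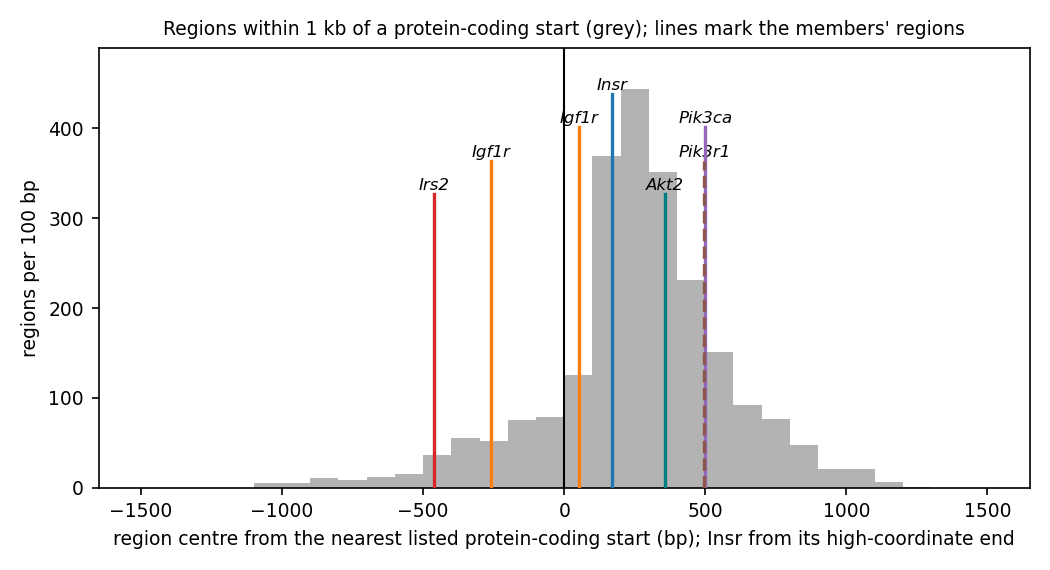
Grey bars count regions within 1 kb of a listed protein-coding start, in 100 bp steps of the region's centre, and coloured lines mark the members' regions (Insr from its high-coordinate end). The counts peak downstream of the start. Akt2, Pik3ca and Pik3r1 lie on the downstream side, and Irs2 and 1 Igf1r region on the upstream side. Regions wholly upstream were 11.5%, a share that leaves out regions across the start, some of which have centres on the upstream side.

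By log-LR, which is a score and not a size of the gain, the 11 regions fell into a higher and a lower set. Igf1r (9.98 and 7.90), Insr inside the gene (8.62) and Irs1 (7.47) were above the list median of 4.96, all of them above the upper quartile of 6.28. The other 7, from 3.39 to 4.72, were below the median. The members' median was 4.66. The regions of the receptors and of Irs1 held all the higher values, and those of Irs2, the PI3-kinase genes and Akt2 held only lower ones. The lowest value, 3.39, was also at a receptor gene, in the region at the end of Insr. Widths ran from 122 to 240 bp with a median of 182 bp, against 205 bp for the list, and 9 of the 11 regions were narrower than that. The second Igf1r region was close to the smallest width in the list, 120 bp. At a log-LR of at least 5, a limit at which 12.5% of protein-coding genes had a region within 10 kb, 3 of the 8 members did: Insr, Igf1r and Irs1.

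**Figure D4:**
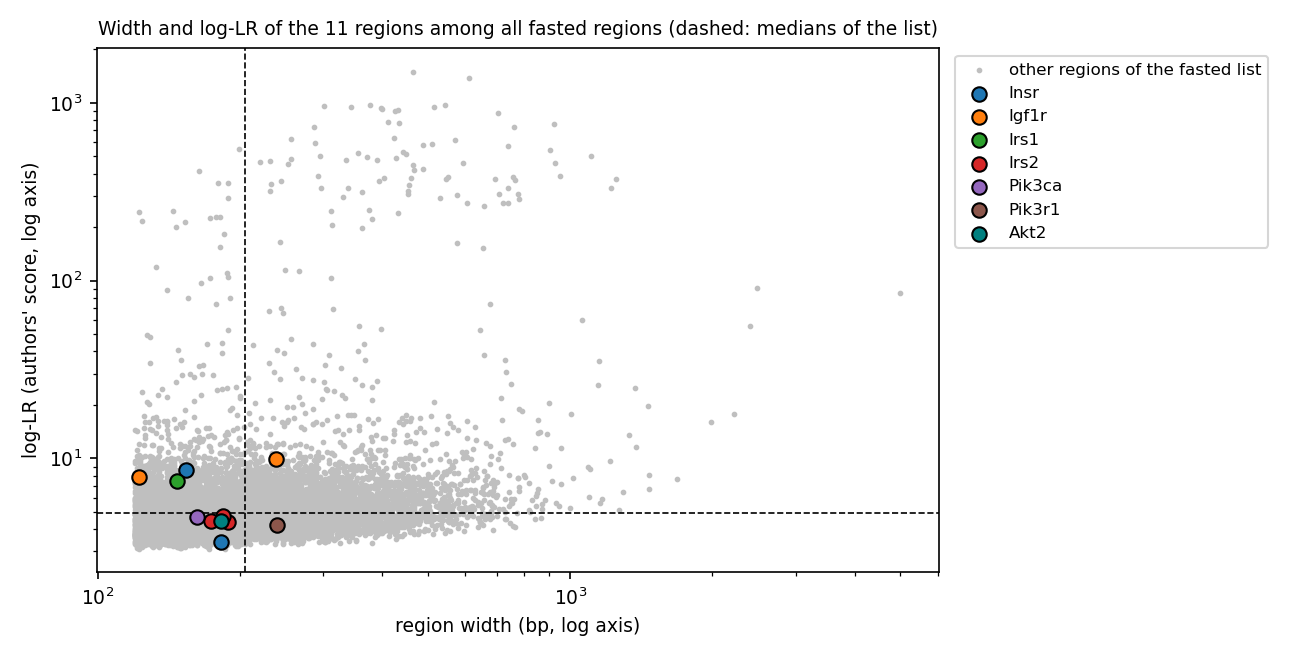
Grey points are regions of the fasted list by width in bp and by the authors' log-LR, both on log axes, with the list medians (205 bp and 4.96) dashed; coloured points are the 11 regions. The 4 coloured points above the dashed horizontal line belong to Igf1r, Insr and Irs1.

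The rest of the pathway was read from a list of 77 other genes, of which 22 (28.6%) had a region within 10 kb and 13 (16.9%) had one within 1 kb of a start. These shares are near the 23.3% and 12.8% of all protein-coding genes, and the listed genes were longer, with a median of 48.6 kb. None (0) of the 4 ligand genes Ins1, Ins2, Igf1 and Igf2 had a region, nor did the receptor genes Igf2r and Insrr, and of 8 binding protein genes only Igfbp6 did. That region (log-LR 6.45) was 8198 bp from Igfbp6 and overlapped Spryd3.

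Among 11 adaptor genes, with a median length of 78.3 kb, 4 (36.4%) had a region within 10 kb, beside 23.3% of all protein-coding genes. Gab2, a docking protein that binds PI3-kinase, had 3 inside its 227.2 kb with log-LR values of 4.52, 6.65 and 6.46. Its relative Gab1 had 1 that began 204 bp after a start (log-LR 5.18). Sos2, an exchange factor for Ras, had 1 inside the gene (7.48), and Shc3, a neuronal adaptor, had 1 (3.68). Of 8 receptor inhibitors only 2 (25%) had any, beside the same 23.3%. These were the suppressors of cytokine signalling Socs1 (4.10) and Socs2 (4.55 and 4.28). At Socs2 the gene 5730420D15Rik was overlapped too.

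None (0) of the 10 other PI3-kinase genes, among them Pik3cb, Pik3r2 and Pik3r3, had a region within 10 kb. Most protein-coding genes have none, the share with one being 23.3%, so this count is not shown to differ from that of Pik3ca and Pik3r1. Among 5 lipid phosphatase genes, which oppose PI3-kinase, Inpp4b had 1 region (4.56) inside a gene of 792.0 kb.

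Of 10 genes for kinases and inhibitors of Akt, with a median length of 79.1 kb, 6 had a region within 10 kb and 3 had one within 1 kb of a start, beside 23.3% and 12.8% of all protein-coding genes. They included Rictor of mTOR complex 2, which phosphorylates Akt (log-LR 4.59, 776 bp after a start), the Akt phosphatase genes Ppp2ca (4.48, 114 bp after a start) and Phlpp1 (4.97, 1125 bp after a start), and the pseudokinase genes Trib1 (4.42) and Trib2 (4.78). The region counted for Pdpk1, the kinase that activates Akt (4.25), was 7588 bp away and overlapped Amdhd2. Of 19 Akt substrate genes, with a median length of 22.4 kb, 8 (42.1%) had a region within 10 kb, beside the same 23.3%. Gsk3b, a kinase that Akt inhibits, had a region at 6.39, Tsc1, a partner of the Akt substrate Tsc2, one at 5.86, and Mdm2, a ubiquitin ligase for p53, had 2 at 5.64 and 4.34. The region of Foxo3, a transcription factor that Akt keeps out of the nucleus, lay 265 bp upstream of its start (4.79), while Foxo1, Foxo4 and Foxo6 had none. Akt1s1, an inhibitor of mTOR complex 1, had one inside the gene, 94 bp upstream of a listed start that also lies inside it (4.52). Tbc1d4, which holds back glucose transporter traffic until Akt phosphorylates it, had one inside the gene (4.03) that also overlapped Gm34417. The regions counted for Bad (4.89) and Acly (5.10) lay outside these genes and overlapped Gpr137 and Klhl11.

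**Figure D5:**
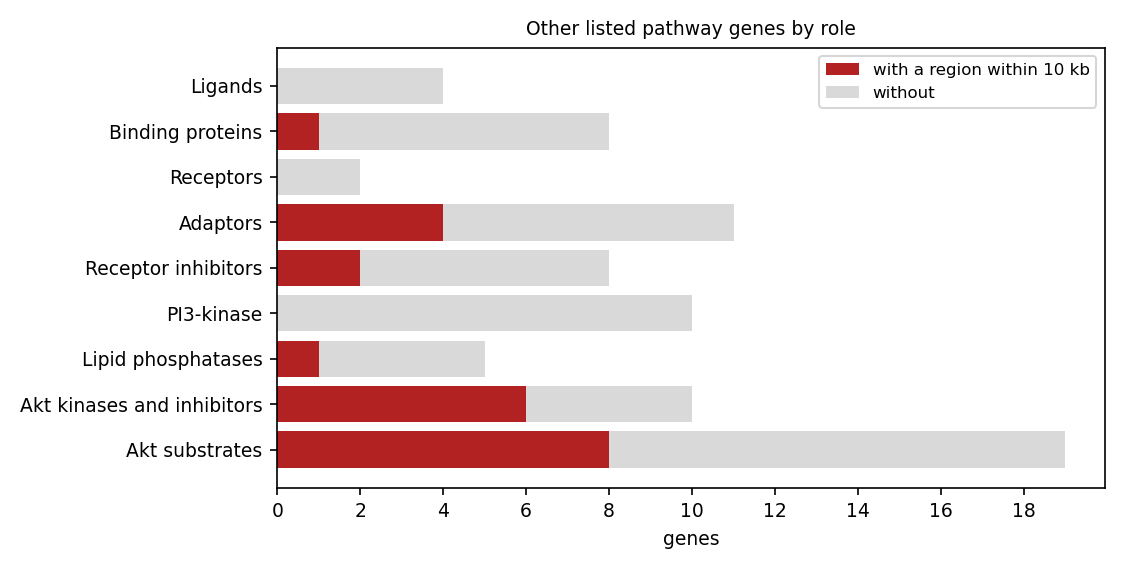
Bars count the other 77 pathway genes by role, red for those with a fasting-enriched region within 10 kb and grey for those without. No ligand, other receptor or other PI3-kinase gene had one, and 6 of 10 genes for kinases and inhibitors of Akt did, beside 23.3% of all protein-coding genes.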

How the data were processed

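The authors deposited 2 lists of regions for the whole series. Per the file headers, each region has a position, a name and a log-LR, treated here as a score. The submitters' processing notes name Bowtie2, MACS2 and mm10, with no versions and no roles. The sources used here do not state the log base, the cutoff, the depth scaling or any pooling of libraries, and each of them would move which regions are listed. Starts were read as counted from 0 and are printed from 1.

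Genes came from RefSeq (GRCm38.p6, 49997 genes), and starts and strand from its promoter table, which lists 17492 of the 21900 protein-coding genes. Other genes were taken at both ends. Distances are from the nearer edge of a region. Exons and introns were not separated. The placing of regions was checked on simulated data. No test was run, since no value per library was used here. The members and the list of 77 other genes were chosen with earlier results of these data known. Named genes were all members, the listed genes with a region, genes that a member's region overlaps or lies next to, and, for each member with a region, the 3 genes of most similar length with the same number of regions inside and in the flanks. Some genes that the list or this rule takes are left out and not reported here. Python 3.11.15, numpy 2.4.6, pandas 2.3.3 and matplotlib 3.10.9 were used.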

Additional observations from a re-analysis of the deposited data

How the results depend on the processing

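Of 31 alternative counts, 25 stayed within 1.5 times the reported one. At a log-LR of at least 5, members with a region within 10 kb became 3 of 8, their regions 4, members with one at a start or end 1 (Igf1r), other pathway genes 8 of 77 within 10 kb and 4 at a start. This limit keeps fewer regions by construction, and the share of all protein-coding genes fell with it, to 12.5% within 10 kb and 6.39% at a start. With a window of 50 kb the other pathway genes with a region became 37, where 43% of all protein-coding genes had one, and Akt1 then counted too, which made 8 of 8. Members with a region at a start or end numbered 6 at 500 bp and at 3 kb, and with either gene end taken for every gene, a setting chosen after seeing the data. No paired analysis was possible because no file gave values by library, and leaving out replicates was not run for the same reason.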

Other observations

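The genes most like each member in region pattern, by the same number of regions inside the gene and in its 10 kb flanks and by closest length, were as follows. For Igf1r, with 1 inside and 1 in the flank, these were Celf4 (276.9 kb, length ratio 1.02), Carmil1 (268.3 kb) and Fbxl7 (355.1 kb), out of 250 genes with those counts. For Irs2, with 2 inside and 1 in the flank, only 32 genes had the same counts, and the closest in length were Mov10 (23.8 kb), Eif4b (23.4 kb) and Phax (25.1 kb). For Insr, with 2 inside, 409 genes had the same counts, led by Ugt1a8 (131.2 kb), Ugt1a7c (125.0 kb) and Gng12 (125.0 kb). Irs1, Pik3ca, Pik3r1 and Akt2 had the commonest of these patterns, 1 region inside and none outside, shared with 2645 genes, among which Rspry1, Gm38702 and Etv5 were closest in length to Irs1, Tpp2, Actn4 and Wdr37 to Pik3ca, Nedd4, Tnpo1 and Spats2 to Pik3r1, and Gfpt1 and Slc30a9 to Akt2.

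Other motifs searched on both strands of the member promoter windows were spread as follows. GGGCGG, a site bound by Sp1, was in 7 of the 12 windows, 1 for each of the 7 members with listed starts, and in 35.7% of all windows. These 7 were the CpG-rich member windows, whereas 10995 of all 32851 windows were CpG-rich. The share with GGGCGG among CpG-rich windows alone was not computed. TGTTTAC, a site bound by FOXO factors, was in 1 window, that of the outer Akt1 start, and in 3.65% of all windows. CCAAT was in the windows of Irs2, of the outer Pik3r1 start and of an inner Akt2 start (37.4% of all windows). The outermost Akt2 window, part of which is printed above, did not hold it. TATAAA was in the window of the inner Pik3r1 start (13.6%).

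Apart from the Irs2 region that overlaps 9530052E02Rik, the members' regions overlapped no other gene. The other 2 Irs2 regions were 0.5 and 2.5 kb from 9530052E02Rik. The nearest other gene to the Igf1r regions was Gm39027 at 102.4 kb, and the nearest other protein-coding gene to the Pik3r1 region was Cd180 at 925.7 kb. The nearest to the Irs1 region was Rhbdd1 at 32.8 kb, and the nearest to the Pik3ca region was 4930429B21Rik at 30.0 kb. The nearest other gene was Gm30369 for the Insr regions, at 68.4 and 100.6 kb, and Gm18046 for the Akt2 region, at 2.9 kb. The nearest other protein-coding gene to the Akt2 region was 2310022A10Rik at 9.7 kb, so that region lay within 10 kb of these genes as well.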
